A study of Mus musculus with 4 samples.

Results

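The enteroendocrine hormone genes comprise 10 genes that were chosen by name, with earlier results of these data known: Insl5, Nts, Pyy, Gcg, Cck, Sst, Chga, Chgb, Tph1 and Sct. Each was measured by 1 probe set that the platform annotation maps to that gene alone, so 10 of the 18193 genes named on the array are described. All values are the authors' deposited log2 expression values, in which a difference of 1 is 2-fold, and the level of one probe set cannot be set against that of another. The study measured RNA of the distal colon on 4 Affymetrix arrays, from mice aged 8 to 10 weeks when treatment started. The groups were Adamts12 KO with 2% DSS, Adamts12 KO untreated, Adamts12 WT with 2% DSS and Adamts12 WT untreated, each with 1 array. DSS, dextran sodium sulfate, is a polymer given in the drinking water that injures the colonic epithelium. The labels give its duration as 7 days in one place and 8 days in another, with 1 further day without it. The labels used here do not say how the KO allele was made, on which strain background the mice were, or their sex. Because each group has a single array, no difference between groups has a replicate check.

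Enteroendocrine cells are scattered, hormone-secreting cells of the gut epithelium that sense the contents of the lumen. They store peptide prohormones or serotonin in dense-core granules and release them towards blood vessels and nerves. Their products change along the gut: L cells of the colon make glucagon-like peptides and peptide YY, Insl5 is a product of L cells of the distal colon and rectum, and neurotensin and secretin are better known from the small intestine. Enterochromaffin cells make most of the serotonin of the gut.

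The untreated KO array stood apart from the others in genes that mark position along the gut. Hoxb13, a homeobox gene of the most posterior gut, was at 8.40 in the DSS KO, 2.48 in the untreated KO, 7.84 in the DSS WT and 9.47 in the untreated WT colon. Fabp2, a fatty acid binding protein of small intestinal enterocytes, was at 4.51, 10.62, 8.07 and 6.72 in the same order. All 4 samples are labelled distal colon, and Hoxb13 was thus below the array median on the untreated KO array alone. Position markers differed among the other arrays too. Hoxd13, also a posterior Hox gene, was at 7.20, 3.36, 4.22 and 8.82 in the same order. Hoxd10, another, was at 3.61, 4.30, 2.37 and 5.82, below the median on the DSS WT array alone. Isx, a marker of the small intestine and proximal colon, was at 4.52, 8.35, 6.09 and 2.69. Comparisons that use the untreated KO array are given beside those that do not, and the latter are not free of position differences. The targeted gene was dim, at 1.41 in the DSS KO, 1.42 in the untreated KO and 2.18 on both WT arrays on its brighter probe set, and between 0.71 and 0.97 on the other; where these lie relative to the deleted part is not given. The array medians lay between 3.42 and 3.46, and epithelial markers were bright on every array, with Epcam between 10.98 and 11.51.

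A gene entered the comparisons across all genes when a probe set of it lay above the median of its array on 1 or more arrays, as was so for 12189 genes. Of the 10 hormone genes, 9 passed, 7 of them above the median on all 4 arrays. Tph1 lay above the median on 3 arrays. Nts passed only through the untreated KO array, so it had to be high there. Cck lay below the median on every array and did not pass. In total tissue RNA, fewer cells of a type and less RNA per cell cannot be told apart.

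**Figure D1:**
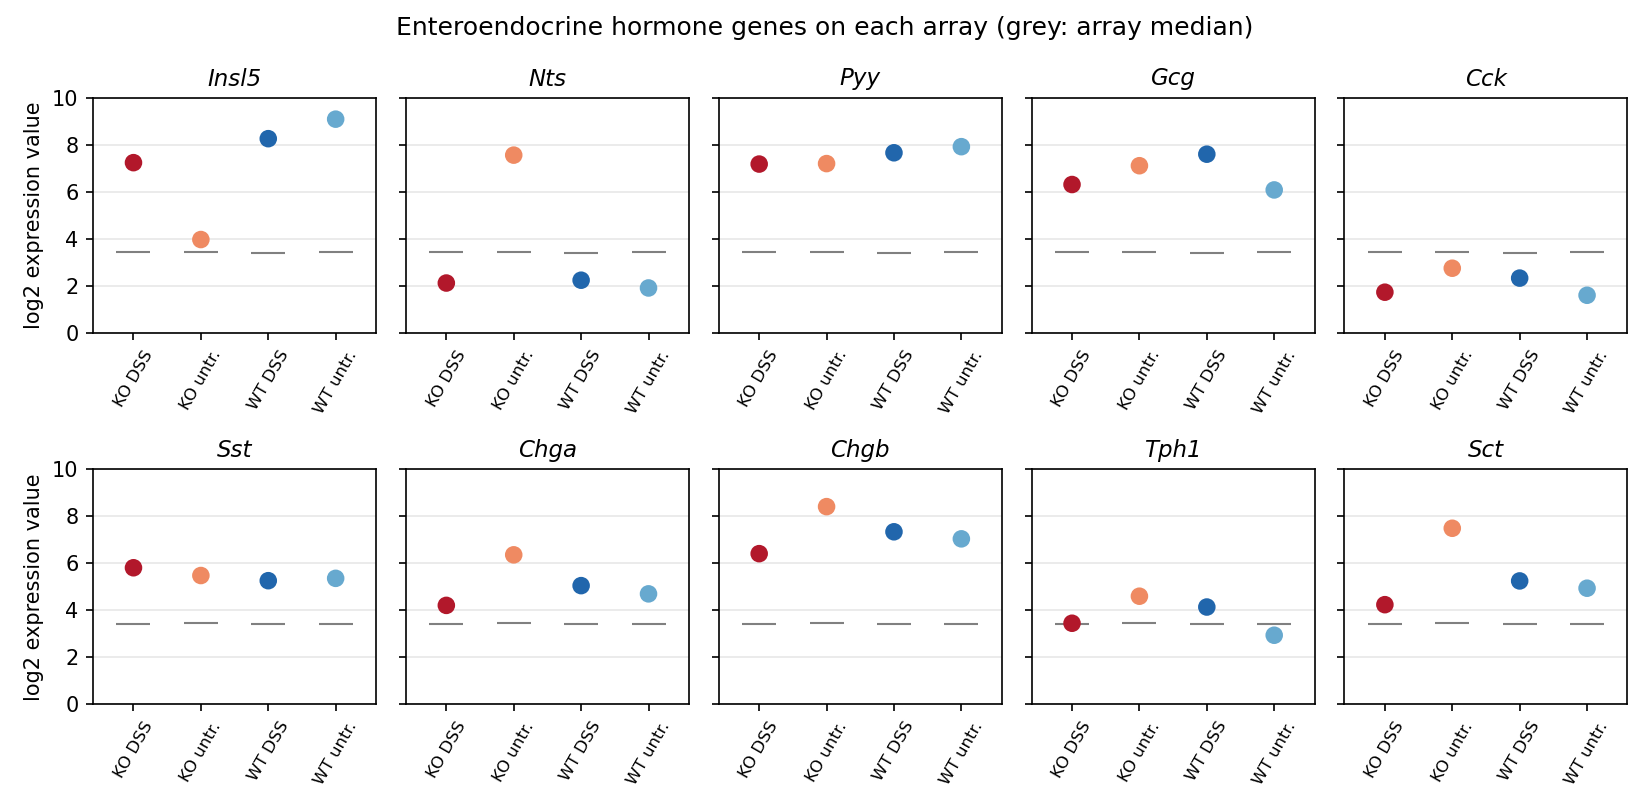
Log2 expression value of each hormone gene (vertical axis) on the DSS KO, untreated KO, DSS WT and untreated WT arrays (horizontal axis); each dot is 1 array and the grey dash is the median of all probe sets on it. Nts, Sct, Chga and Chgb stood highest on the untreated KO array, Insl5 lowest, and Pyy and Sst varied by 0.74 and 0.55.

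Insl5, an insulin-like peptide that acts through the receptor RXFP4, had log2 values of 7.25 in the DSS KO colon, 3.98 in the untreated KO colon, 8.27 in the DSS WT colon and 9.10 in the untreated WT colon. It was bright on both WT arrays, at percentiles 95.5 with DSS and 97.7 without it among all probe sets, and at percentile 56.9 on the untreated KO array. KO lay below WT by a log2 difference of -5.12 in the untreated colon, a 34.8-fold lower level, and by -1.02 under DSS. Only 8 of the 12189 genes, Insl5 included, were as far or further below the WT value in the untreated KO colon. The difference of DSS from untreated was 3.27 in KO and -0.83 in WT. The 3.27 rests on the low untreated KO array, and relative to untreated WT the DSS KO level was lower, by -1.85.

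Pyy and Gcg are co-expressed with Insl5 in colonic L cells. Pyy, whose product peptide YY slows gut transit and reduces appetite, had values of 7.19 in the DSS KO, 7.21 in the untreated KO, 7.67 in the DSS WT and 7.93 in the untreated WT colon. The 4 arrays were close together, KO lay below WT with and without DSS (-0.48 and -0.72), and DSS lay near untreated in KO and WT (-0.02 and -0.26, the first turning to 0.01 under median centring and 0.05 when centred on epithelial markers). Gcg encodes proglucagon, the precursor of the glucagon-like peptides, and had values of 6.32 in the DSS KO, 7.12 in the untreated KO, 7.61 in the DSS WT and 6.09 in the untreated WT colon. It was the hormone gene with the highest DSS difference in WT, 1.52, while the DSS difference in KO was -0.80. The KO minus WT difference of Gcg was -1.29 with DSS and 1.03 without DSS. On the untreated KO array Insl5 was thus low, while Pyy and Gcg, the other L cell hormones, were at percentiles 91.1 and 90.6.

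The sequence before the start of Insl5 is shown because this gene was the furthest below WT, for comparison with those of the genes that went the other way. RefSeq's promoter table of build GRCm38.p6 held all 10 hormone genes, and the 250 bases before the first listed start of each were searched on both strands for letters that known factors bind. These were the cyclic AMP response element TGACGTCA (CRE) and its half-site TGACG, which lies within it, the E-box CANNTG bound by basic helix-loop-helix factors such as NEUROG3 and NEUROD1, TATAAA, the GC box GGGCGG, the AP-1 motif TGANTCA and CAATAAA, which CDX and HOX13 factors bind. In the sequences printed, capitals mark TGACG, TGACGTCA or TATAAA on either strand. The stretch of Insl5 lies at chr4:103027272-103027521, minus strand, and RefSeq lists a second start for this gene.
Insl5: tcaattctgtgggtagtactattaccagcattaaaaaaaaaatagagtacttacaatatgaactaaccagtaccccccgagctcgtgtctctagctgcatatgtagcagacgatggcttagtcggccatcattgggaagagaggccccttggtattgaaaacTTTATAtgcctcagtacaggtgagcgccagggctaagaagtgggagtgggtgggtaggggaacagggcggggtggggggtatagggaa

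Nts encodes neurotensin, a peptide of N cells that acts on gut motility and fat absorption. Its values were 2.13 in the DSS KO, 7.57 in the untreated KO, 2.25 in the DSS WT and 1.92 in the untreated WT colon. The gene was bright on a single array, at percentile 93.1, and lay between percentiles 28.2 and 33.7 on the other 3, where detection is not known. KO differed from WT by 5.65 in the untreated colon, a 50.2-fold higher level, and by -0.12 under DSS, and the DSS difference was -5.44 in KO and 0.33 in WT. In the untreated KO colon, 9 of the 12189 genes were as far or further above WT, Nts included. Nts passed the filter only through this array and had to be high there, so the rank is no support. Without the untreated KO array the 3 values lay within 0.33 of each other.

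Sct encodes secretin, which stimulates bicarbonate secretion and is made by S cells and other endocrine cells of the gut. Its values were 4.24 in the DSS KO, 7.49 in the untreated KO, 5.25 in the DSS WT and 4.94 in the untreated WT colon. The untreated KO array was the highest by 2.24, and the DSS KO array the lowest. KO differed from WT by 2.55 in the untreated colon and by -1.01 under DSS, so the order of the genotypes was opposite in the 2 treatments. The DSS difference was -3.25 in KO and 0.31 in WT.

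The granins Chga and Chgb, proteins of the dense-core granules of most endocrine cells, followed one pattern. Chga had values of 4.21 in the DSS KO, 6.36 in the untreated KO, 5.05 in the DSS WT and 4.70 in the untreated WT colon. Chgb had values of 6.41, 8.41, 7.34 and 7.04 in the same order. Both were highest in the untreated KO colon, by 1.31 and 1.07 over the next array, and lowest in the DSS KO colon. KO differed from WT by 1.66 for Chga and 1.37 for Chgb in the untreated colon, and by -0.84 and -0.93 under DSS. The DSS difference was -2.15 and -2.0 in KO, and 0.35 and 0.30 in WT.

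The promoters of these 4 genes are shown because they were the hormone genes at least 2-fold above each other array in the untreated KO colon. The stretches lie at chr10:102490419-102490668, minus strand for Nts, chr7:141279134-141279383, minus strand for Sct, chr12:102554691-102554940, plus strand for Chga and chr2:132781392-132781641, plus strand for Chgb.
Nts: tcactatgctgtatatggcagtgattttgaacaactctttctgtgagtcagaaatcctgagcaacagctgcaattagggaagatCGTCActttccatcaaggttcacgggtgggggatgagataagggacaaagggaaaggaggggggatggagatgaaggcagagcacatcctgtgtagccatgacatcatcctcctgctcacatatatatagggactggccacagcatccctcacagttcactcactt
Sct: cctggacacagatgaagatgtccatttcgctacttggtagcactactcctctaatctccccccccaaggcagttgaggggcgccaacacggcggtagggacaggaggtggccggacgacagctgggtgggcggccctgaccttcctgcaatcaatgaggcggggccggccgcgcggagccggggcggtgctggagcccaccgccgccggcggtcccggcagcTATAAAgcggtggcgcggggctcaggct
Chga: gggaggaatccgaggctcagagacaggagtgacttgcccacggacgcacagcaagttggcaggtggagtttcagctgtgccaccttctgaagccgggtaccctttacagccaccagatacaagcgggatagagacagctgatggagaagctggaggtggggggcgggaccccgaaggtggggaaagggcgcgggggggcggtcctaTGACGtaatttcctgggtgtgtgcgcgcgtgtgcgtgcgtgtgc
Chgb: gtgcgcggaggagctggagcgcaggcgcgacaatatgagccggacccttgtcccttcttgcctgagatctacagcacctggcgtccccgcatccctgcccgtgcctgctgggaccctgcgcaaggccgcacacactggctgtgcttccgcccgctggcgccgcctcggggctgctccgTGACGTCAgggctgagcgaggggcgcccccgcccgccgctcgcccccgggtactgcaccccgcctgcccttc
TGACG was present in those of Nts, Chga and Chgb, in that of Chgb as the full CRE, and not in that of Sct, which held TATAAA at positions -28 to -23 from its start. Of the 10 hormone gene promoters, 6 held TGACG, 2 the full CRE, 9 an E-box, 3 TATAAA, 4 the GC box, 1 the AP-1 motif and 0 CAATAAA. Of all 27025 promoters of this length in the table, 17.9% held TGACG, 1.62% the full CRE, 66.0% an E-box, 13.0% TATAAA, 32.9% the GC box, 6.87% the AP-1 motif and 4.42% CAATAAA. A match is a description of the letters and not a site of binding.

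Tph1 encodes the tryptophan hydroxylase that starts serotonin synthesis in enterochromaffin cells, and mouse mast cells also express it. Its values were 3.45 in the DSS KO, 4.6 in the untreated KO, 4.14 in the DSS WT and 2.94 in the untreated WT colon. The untreated KO array was highest by 0.46, the untreated WT array was below its median, and with DSS the genotypes lay on the other side of each other, at -0.69 KO minus WT against 1.66 without DSS. The DSS difference was -1.15 in KO and 1.20 in WT. Of 12 mast cell markers on the array, the summed linear level was 248.6 in the DSS KO, 193 in the untreated KO, 237 in the DSS WT and 198 in the untreated WT colon. Mcpt1, a mucosal mast cell protease, was at 5.92, 2.62, 5.91 and 4.14 in the same order, lowest on the array where Tph1 was highest. Kit, a receptor of mast cells that interstitial cells also express, was at 5.53, 6.84, 5.43 and 6.51, highest on that array. Of 7 mast cell markers past the filter, 0 were at least 2-fold higher and 3 lower in the untreated KO than in untreated WT (Mcpt2, Mcpt1 and Cma1). The shares of all genes were 3.43% and 5.98%. In WT, 2 of the 7 were higher with DSS (Mcpt1 by 1.77 and Mcpt2 by 1.36), against 5.82% of all genes. Kit (-1.08) was lower, against 4.96%. The part of mast cells in the Tph1 values was not tested.

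Cck, the hormone of I cells that empties the gallbladder, was dim throughout, at 1.74 in the DSS KO, 2.76 in the untreated KO, 2.34 in the DSS WT and 1.61 in the untreated WT colon. The highest of these was at percentile 40.0 of its array. KO differed from WT by 1.15 in the untreated colon and by -0.60 under DSS.

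Sst encodes somatostatin, which inhibits the release of other hormones and is made by D cells and by enteric neurons. Its values were 5.81 in the DSS KO, 5.48 in the untreated KO, 5.26 in the DSS WT and 5.36 in the untreated WT colon. The whole range was 0.55, the narrowest of the 10 genes, and no pair of arrays was 2-fold apart; the WT difference with DSS, -0.10, turned to 0.08 when centred on epithelial markers. Of 14 enteric neuron markers on the array, the summed linear level was 408 in the DSS KO, 157 in the untreated KO, 248 in the DSS WT and 244 in the untreated WT colon. Sst was thus level between arrays whose neuronal markers differed, and their part in its values was not tested. Its promoter is shown because it holds the full CRE, as does that of Chgb, while the levels of the pair across the arrays differed. It lies at chr16:23890845-23891094, minus strand, with the CRE at positions -48 to -41 from the start.
Sst: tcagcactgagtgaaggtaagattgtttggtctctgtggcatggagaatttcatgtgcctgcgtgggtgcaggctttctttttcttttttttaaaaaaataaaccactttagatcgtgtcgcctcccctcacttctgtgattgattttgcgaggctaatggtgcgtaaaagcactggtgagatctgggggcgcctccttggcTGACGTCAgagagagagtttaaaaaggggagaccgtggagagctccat

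In the untreated colon, 6 of the 9 hormone genes past the filter were at least 2-fold higher in KO than in WT, against 3.43% of all genes, and Insl5 was at least 2-fold lower, against 5.98%. Counting both directions, 7 of 9 were 2-fold apart, against 9.41% of all genes. The 6 were Nts, Sct, Chga, Tph1, Chgb and Gcg. The median KO minus WT difference of the 9 was 1.37, and that of all genes -0.01. Because Nts passed the filter through the untreated KO array alone, its place in this count is not support. The hormone genes were chosen with earlier results of these data known, so an excess over the share of all genes is no test of them. The untreated KO array was the highest of the 4 for 6 of the 10 hormone genes (28.7% of all genes), at least 2-fold above each other array for 4 (1.82%) and at least 2-fold below each for Insl5 (1.58%). Nts had to be highest there, so its place in the 6 and the 4 is not support. Cck, also among the 6, did not pass the filter. The arrays were also centred on the median of 16 epithelial markers, an alternative chosen after the data were seen. The KO against WT counts then stayed at 6 higher and 1 lower.

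In the DSS-treated colon, a comparison that does not use the untreated KO array, 3 of the 9 were at least 2-fold lower in KO than in WT, against 1.21% of all genes. These were Gcg (-1.29), Insl5 (-1.02) and Sct (-1.01), of which the last 2 were just past the 2-fold mark. None was 2-fold higher, against 4.22% of all genes, so 3 were 2-fold apart, against 5.42%, and the median was -0.84, with -0.02 for all genes. Short of 2-fold, KO lay below WT for Chgb (-0.93), Chga (-0.84), Tph1 (-0.69), Cck (-0.60), Pyy (-0.48) and Nts (-0.12), and above it for Sst (0.55). Nts and Cck were dim on both arrays. No share of all genes was taken for these smaller differences. Over the same arrays the median KO minus WT difference was -0.16 for 16 epithelial markers and -1.08 for 13 goblet cell markers, of which 8 were at least 2-fold lower. It was -0.59 for the small intestine and proximal colon markers, with 3 of 10 lower: Fabp2 (-3.56), Slc13a1 (-2.10) and Isx (-1.57). For the posterior Hox genes it was 0.19, with 2 of 12 higher: Hoxd13 (2.98) and Hoxd10 (1.24). The summed linear level of 10 leukocyte markers was 2185 in the DSS KO and 719.9 in the DSS WT colon. Their part in the hormone gene differences was not tested.

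**Figure D2:**
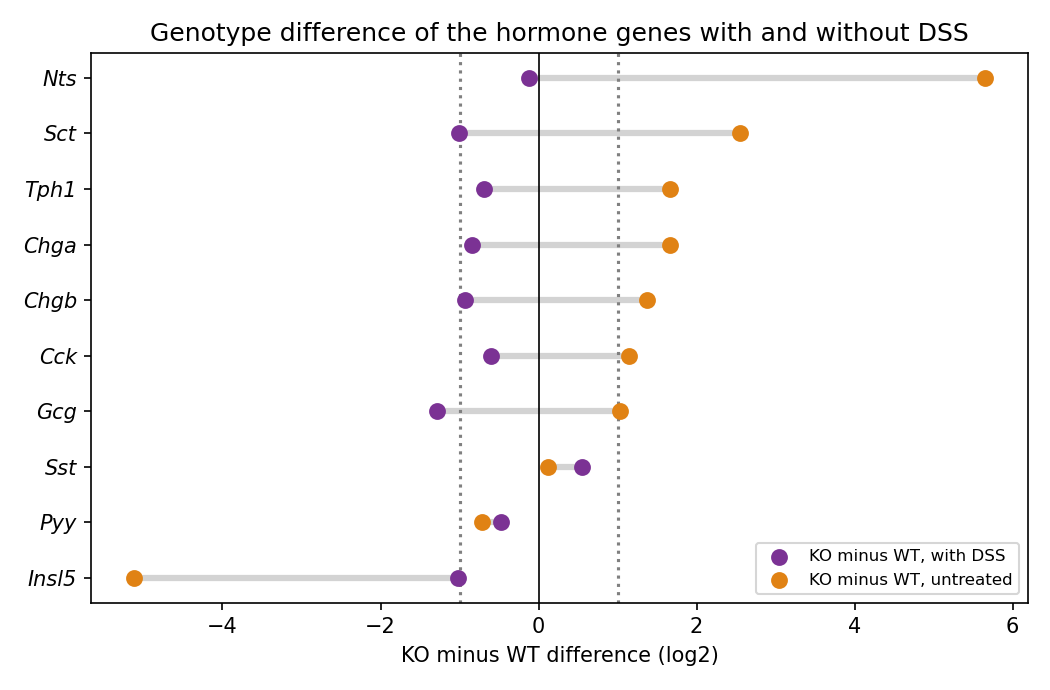
KO minus WT difference in log2 values (horizontal axis) of each hormone gene (vertical axis), with DSS in purple and untreated in orange; each dot is the difference between 2 arrays and dotted lines mark 2-fold. Nts, Sct, Chga, Chgb, Tph1, Cck and Gcg lay to the right of 0 without DSS and to the left with DSS, and Insl5 lay to the left in both, at -1.02 with and -5.12 without DSS.

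In WT, 2 of the 9 hormone genes were at least 2-fold higher with DSS, Gcg and Tph1, against 5.82% of all genes, and 0 were lower, against 4.96%. The median DSS difference of the 9 was 0.31 in WT, and that of all genes -0.01. In the same pair of WT arrays markers of the small intestine and proximal colon were higher with DSS in 5 of 10 cases and lower in 1 (median 0.64), and 4 of 12 posterior Hox genes were lower, Hoxb13 by -1.63, and their part was not tested. In KO, 5 of the 9 hormone genes were at least 2-fold lower with DSS (Nts, Sct, Chga, Chgb and Tph1), against 6.68% of all genes. Insl5 alone was higher, against 10.8%, so 6 were 2-fold apart, against 17.4%. The median in KO was -1.15, with 0.06 for all genes. Over the same KO arrays 8 of 13 goblet cell markers were at least 2-fold lower with DSS (median -1.12), while 7 of 10 enteric neuron and 5 of 9 leukocyte markers were higher (medians 1.29 and 1.24). Of the 7, Nefl passed the filter only through the DSS KO array and had to be high there, so it is no support. In WT, 6 of 13 goblet cell markers were lower with DSS (median -0.90), no enteric neuron marker was 2-fold apart, and 2 of 9 leukocyte markers were higher and 1 lower. The part of these markers was not tested. These KO counts rest on the untreated KO array: with DSS KO compared to untreated WT, an alternative added after the data were seen, 1 of the 9 was at least 2-fold lower (Insl5, -1.85), against 5.05% of all genes, and 0 were higher, against 6.13%, or 11.2% of all genes in both directions. Of the other hormone genes, DSS KO lay below untreated WT for Pyy (-0.74), Sct (-0.70), Chgb (-0.63) and Chga (-0.49), and above it for Tph1 (0.51), Sst (0.45), Gcg (0.23), Nts (0.21) and Cck (0.13). The DSS difference in KO less that in WT was at least 2-fold apart for 7 of the 9, higher for 1 (12.3% of all genes) and lower for 6 (5.92%), against 18.2% in both directions. Nts, which passed the filter only through the untreated KO array, had to be lower in both of these KO counts and is no support for them.

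A limma model with both genotype and treatment as terms was fitted to the 4 arrays, with 1 residual degree of freedom, and gave a test of DSS and a test of KO. No gene passed at a Benjamini-Hochberg adjusted p under 0.05 in either test, 0.0% of 12189, while 1438 genes for DSS (11.8%) and 176 for KO (1.44%) had an unadjusted p under 0.05. None of the 9 hormone genes was among these. Their lowest unadjusted p was 0.178 for DSS, that of Nts (limma, log2 difference -2.56 ± 1.54, SE, lower in KO only), and 0.0534 for KO, that of Insl5 (limma, -3.07 ± 1.09, SE, lower in both treatments). Adjusted over all genes with limma, their p lay between 0.599 and 0.992 for DSS and at 1.00 for KO. The DSS effect of most hormone genes had opposite signs in KO and WT, which this model takes as error.

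The hormone gene pattern was accompanied by that of the position markers. All 10 small intestine and proximal colon markers past the filter exceeded the untreated WT level by 2-fold or more in the untreated KO colon. Their median was 3.83, and the share of all genes was 3.43%. Slc51a, Slc10a2 and Osr2 passed only through the untreated KO array and so had to be higher there. Lct, Apoa1, Apoa4 and Gata4 of this list lay below the median on every array and did not pass. On their brightest probe sets the untreated KO minus WT difference was 0.11, 0.10, 0.00 and 0.24. Of 12 posterior Hox genes 7 were lower (5.98% of all genes) and 2 higher (Hoxd8 and Hoxb9), with a median of -1.42. Both lists were chosen with earlier results of these data known. The summed linear level of the 14 small intestine and proximal colon genes on the array was 197 in the DSS KO, 3354 in the untreated KO, 584 in the DSS WT and 250.6 in the untreated WT colon. That of 14 posterior Hox genes was 897, 249.8, 667 and 1588 in the same order, and no value on the arrays was at 0. The summed level of 16 epithelial markers, carried by the brightest, was 23913, 29508, 25282.5 and 27125.5. Of these, Cdx2 and Cldn4 were higher in the untreated KO than in untreated WT, by 2.25 and 1.23. Cdx2, an intestinal homeobox gene, was at 6.19, 8.40, 7.34 and 6.15 in the same order of groups, and in KO Cdx2, Cldn3 and Hnf4a were at least 2-fold lower with DSS. The pancreas list mixes islet genes with genes of digestive enzymes. Of it, the islet gene Ins2 was at 3.73 in the DSS KO, 4.17 in the untreated KO, 3.79 in the DSS WT and 4.0 in the untreated WT colon. The summed level of the list's 13 genes was 314, 340.0, 430.4 and 1295 in that order, mostly from the digestive genes Cela1 and Clps on the untreated WT array. That sum is thus no measure of islets, which also express Gcg and Sst. With 1 array per group, genotype and the position of the sample along the colon cannot be told apart in the untreated pair. The same holds for the DSS pair, where KO differed from WT by -3.56 for Fabp2 and 2.98 for Hoxd13.

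Genes with the most similar profile over the 4 arrays were found by the distance between log2 values after centring each gene. Nearest to Nts were Ugt2b5, Prap1 and Slc51a, at distances of 0.72, 0.73 and 0.75. Nearest to Insl5 were B3gnt5, Thbs4 and Aqp8 (0.89, 1.06 and 1.08), and nearest to Sct were Ppfia3, Abhd3 and Ces1e (0.34, 0.41 and 0.46). Chga lay nearest to Oas3, Ces2e and Acads (0.13, 0.13 and 0.16), and Chgb to Kif12, Rph3al and Acads (0.09, 0.10 and 0.12). With 4 arrays these distances describe the arrays only.

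The machinery that makes and stores hormones did not move as a block. Of 26 prohormone processing and granule genes on the array, 23 passed the filter. Of these, 2 were at least 2-fold higher in the untreated KO than in the untreated WT colon and 7 lower, with a median of -0.08. The shares of all genes were 3.43% and 5.98%. The 2 were Pcsk1, the convertase that cleaves proglucagon in L cells, and Rph3al, a granule exocytosis protein. Pcsk1 was at 3.48 in the DSS KO, 5.31 in the untreated KO, 4.06 in the DSS WT and 3.55 in the untreated WT colon, the same order of arrays as for Chga. Rph3al was at 4.74, 6.64, 5.54 and 5.34 in the same order. Among the 7 lower were Pam (-2.26), which amidates peptides such as PYY, Rab3b (-1.99), the granin gene Scg2 (-1.94) and Rab27a (-1.55). Scg2, Snap25 (-1.45) and Cpe (-1.15) are also expressed by neurons, whose markers were lower on that array, and their part was not tested. Cpe, which trims the cleaved peptides, had a dimmer probe set that differed the other way, by 0.95.

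Under DSS the same 23 genes differed little between the genotypes, with a median of 0.00. At least 2-fold higher in KO were 2 (Rab3c and Scg5), against 4.22% of all genes, and 0 were lower, against 1.21%. Rab3c and Scg5 passed the filter only through the DSS KO array and had to be high there, so they are no support. In WT, 3 of the 23 were at least 2-fold lower with DSS (Syt7, Rab27a and Ptprn2), against 4.96% of all genes. None was higher, against 5.82%, and the median was -0.20.

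Few transcription factors of the enteroendocrine lineage were bright enough to compare. Of 19 on the array, 6 passed the filter. Atoh1, which directs progenitors to the secretory lineage, was at 5.88 in the DSS KO, 8.03 in the untreated KO, 6.90 in the DSS WT and 8.22 in the untreated WT colon, lower with DSS by -2.15 in KO and -1.32 in WT. Foxa2, a factor of gut endoderm and endocrine cells, was at 5.93, 4.82, 6.34 and 7.33 in the same order, with a KO minus WT difference of -2.51 without DSS. Neurod1, a factor of endocrine differentiation, did not pass and was picked after its values were seen. Both of its probe sets were highest on the untreated KO array, at 2.94 and 2.99. They were at 2.01 and 1.89 in the DSS KO, 2.44 and 2.26 in the DSS WT and 2.20 and 2.08 in the untreated WT colon. Other factors below the filter varied in the untreated pair. KO minus WT was 0.74 for Nkx2-2 and 0.70 for Pax4. By probe set it was 0.09 and -1.18 for Isl1, and -0.21 and 0.16 for Insm1.

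The other serotonin synthesis and handling genes varied in their pattern. Of 7 past the filter, 3 fell short of untreated WT by 2-fold or more in the untreated KO colon and 0 exceeded it. The shares of all genes were 5.98% and 3.43%. The 3 were Maob (-1.84), a monoamine oxidase, Slc6a4 (-1.38), the serotonin transporter of epithelial cells, and Ddc (-1.23), the decarboxylase that completes serotonin synthesis. With DSS the same 3 were lower in WT, by -1.77, -1.06 and -1.22, so the untreated WT array was the highest for each. Ddc was at 6.16 in the DSS KO, 6.10 in the untreated KO, 6.11 in the DSS WT and 7.33 in the untreated WT colon. Spr, a reductase that makes the hydroxylase's cofactor, had the array order of Tph1 within a narrower range, at 5.64, 6.16, 5.96 and 5.60 in the same order of groups. Maoa, the other monoamine oxidase, was also highest on the untreated KO array, at 8.92, 10.67, 9.58 and 10.18.

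Of 10 sensor genes past the filter, Ffar4, a long-chain fatty acid receptor, was at least 2-fold higher in the untreated KO than in the untreated WT colon (1.46). Cnr1, a cannabinoid receptor, was lower (-1.43). The shares of all genes were 3.43% higher and 5.98% lower. Cnr1 was dim on both of these arrays, at 1.59 in KO and 3.02 in WT, and passed only through the DSS KO array. Its other probe set differed the other way, by 0.12. Ffar2, the short-chain fatty acid receptor of L cells that immune cells also express, was at 4.34 in the DSS KO, 6.22 in the untreated KO, 5.16 in the DSS WT and 5.81 in the untreated WT colon, lower with DSS by -1.88 in KO and -0.65 in WT. In WT, Trpa1, an irritant channel of enterochromaffin cells, and Ffar4 were higher with DSS, by 1.20 and 1.04, as were Tph1 and Gcg. Of 26 receptor genes for these hormones on the array, 9 passed. Htr4, a serotonin receptor, was at 4.39 in the DSS KO, 4.13 in the untreated KO, 5.39 in the DSS WT and 6.21 in the untreated WT colon, lower in KO than in WT by -1.0 with DSS and -2.08 without DSS. Sort1, a sorting receptor that binds neurotensin, was at 7.26, 8.49, 7.50 and 8.40 in the same order, lower with DSS by -1.23 in KO and -0.90 in WT. Sstr2, a somatostatin receptor, was higher in KO by 0.17 with DSS and 1.06 without DSS.

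**Figure D3:**
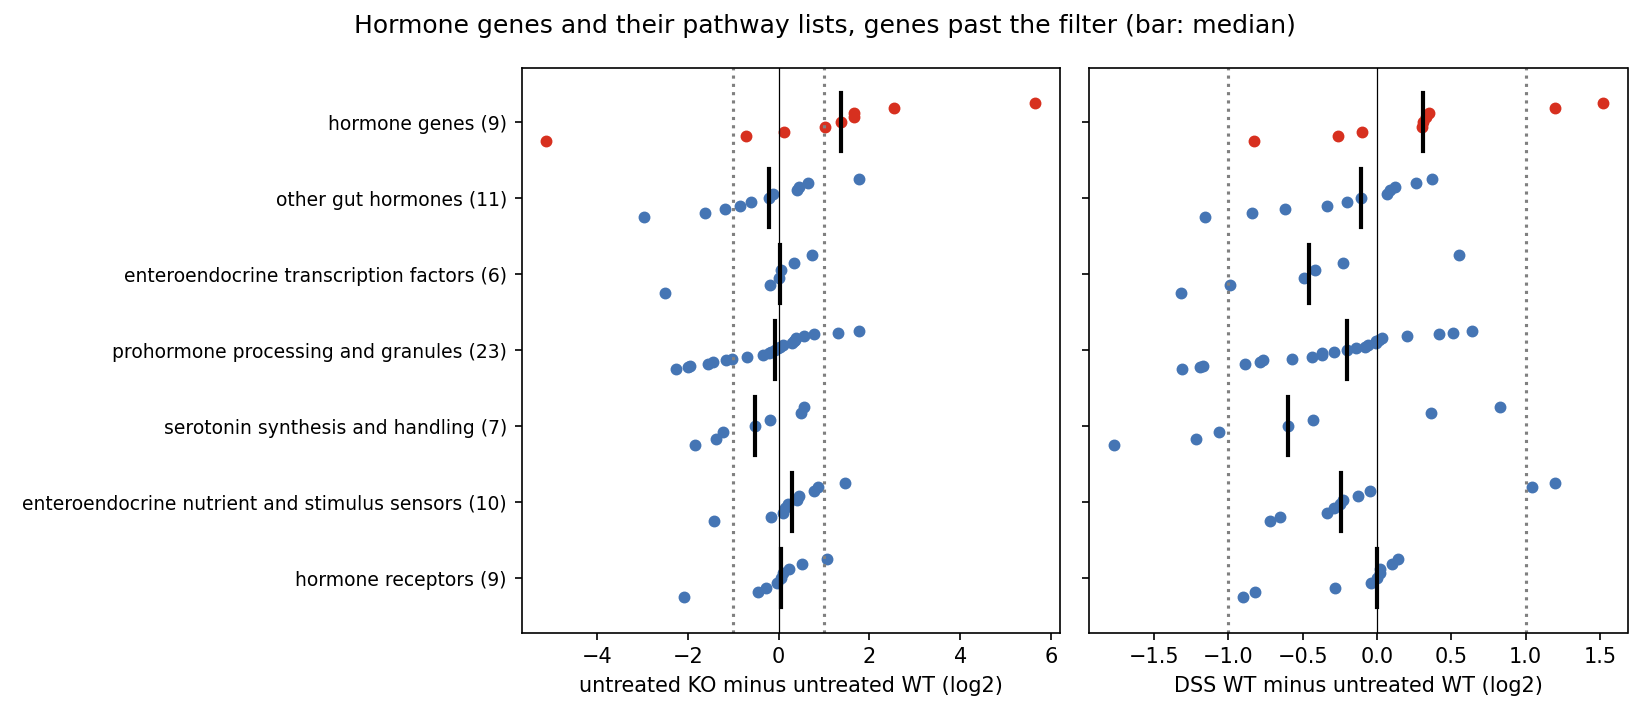
Log2 difference (horizontal axes) of the hormone genes past the filter, in red, and of 6 lists of related genes, in blue, for untreated KO minus untreated WT on the left and DSS WT minus untreated WT on the right; each dot is 1 gene, the black bar is the list's median and dotted lines mark 2-fold. The hormone genes had a median of 1.37 on the left and 0.31 on the right, and the granule genes of -0.08 and -0.20.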

How the data were processed

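RNA from fragments of distal colon was hybridised to 4 arrays, 1 per group. The authors' deposited table holds 45101 probe sets with log2 values from 0.16 to 13.23, read as log2 since, on a natural log scale, the highest would exceed the scanner maximum of 65535. Their summarization and normalization are not given in the sources used here, and the values were used as deposited. Background and detection calls were not used, and the number of arrays limits the precision. Probe sets were named through the platform annotation, with symbols updated by gene number through RefSeq GRCm38.p6. Of them, 34945 had 1 symbol, 932 several, 9160 none and 64 were controls.

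Probe sets had to exceed the array median on 1 or more arrays, and the one with the highest mean stood for its gene, which gave 12189 genes. Pairs of arrays were compared by log2 differences and 2-fold counts, with no test. The tests over 4 arrays used limma 3.58.1 in R 4.3.3 (lmFit, eBayes with an intensity trend, two-sided, Benjamini-Hochberg), and the code was tested on simulated data. Summed linear levels take 2 to the power of each gene's brightest probe set. The named genes were the 10 hormone genes, Adamts12 and members of each list by size of difference. For hormone genes with a range of at least 2 the 3 nearest genes were named too. Neurod1, Nkx2-2, Pax4, Isl1, Insm1, Iapp, Ins2, Epcam, Snap25, Cpe, Spr, Maoa, Lct, Apoa1, Apoa4 and Gata4 were added after their values were seen. So were the genes named for passing only through the untreated KO or the DSS KO array. The hormone genes and lists were chosen with earlier results of these data known. Alternatives covered normalization, filter, probe sets, covariate, trend and left-out arrays. Python 3.11.15, numpy 2.4.6, pandas 2.3.3 and matplotlib 3.10.9 were used.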

Additional observations from a re-analysis of the deposited data

Results flagged for a closer look

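For 8 of the 10 hormone genes the DSS difference had opposite signs in KO and WT, with the 2 at least 2-fold apart. This was so for 13.0% of all genes past the filter, which Cck did not pass. Nts passed only through the untreated KO array and had to be lower with DSS in KO, so it is no support. With 1 array per group the opposite signs were not tested. Taking the DSS difference in KO less that in WT, the values were 4.10 for Insl5, -5.77 for Nts, -3.56 for Sct, -2.50 for Chga, -2.35 for Tph1, -2.32 for Gcg, -2.30 for Chgb and -1.75 for Cck. Each includes the untreated KO array, on which the position markers stood apart.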

How the results depend on the processing

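No paired analysis was possible because the labels give no replicate numbers and each group has 1 array. Every log2 difference of a hormone gene that could be computed moved by less than 1.5-fold, with no change of sign among those past 2-fold (the KO DSS difference of Pyy, -0.02, turned to 0.01 and 0.05 under the 2 centrings, and the WT one of Sst, -0.10, to 0.08 under the second), under quantile normalization, median centring, no filter, the 75th percentile filter, the mean over probe sets, no _x_at, _s_at and _a_at probe sets, and centring on epithelial markers, the last chosen after the data were seen. With 1 probe set per hormone gene, the filter and probe set alternatives could only leave a difference unchanged or drop the gene. Their unchanged values are therefore no support. Median centring could shift little, since the array medians lay between 3.42 and 3.46. In WT, the count of hormone genes at least 2-fold apart with DSS was 2. It was 1 under the 75th percentile filter, which leaves out Tph1. Without _x_at, _s_at and _a_at probe sets, which leaves out Gcg, it was also 1. In KO the count was 6, and 1 with DSS KO compared to untreated WT, an alternative added after the data were seen. The limma count of genes for DSS was 0, and 1 under quantile normalization or without the covariate. Leaving out each array together with the covariate gave 0 to 0 genes in both tests, the lone array of a group being assumed to vary like the others. Other counts stayed within 1.5 times. Dim values limit Nts on 3 arrays and Cck on all 4.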

Other observations

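Among other peptide genes of gut cells and nerves, Guca2a was highest and Tac1 lowest on the untreated KO array, and 7 of 11 past the filter were not 2-fold apart in the untreated pair. Guca2a, the guanylin gene of surface epithelial cells, was at 7.85 in the DSS KO, 12.12 in the untreated KO, 9.50 in the DSS WT and 10.34 in the untreated WT colon, lower in KO than in WT by -1.65 with DSS and higher by 1.78 without DSS. Tac1, the precursor of substance P in neurons and enterochromaffin cells, was at 8.49, 4.81, 8.14 and 7.77 in the same order. Vip, a neuropeptide gene, was at 8.71, 6.30, 6.75 and 7.91, with the untreated KO array close to the DSS WT array, and Penk, the proenkephalin gene, at 6.65, 4.12, 5.24 and 4.98. Of 11 genes of this list past the filter, 1 was at least 2-fold higher in the untreated KO than in the untreated WT colon (Guca2a) and 3 lower (Tac1, Vip and Nmu). The shares of all genes were 3.43% and 5.98%, and the median of the list was -0.20.

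Iapp, the amylin gene, did not pass the filter, but all 4 of its probe sets were highest on the untreated KO array. The brightest there was at 1.09 in the DSS KO, 3.39 in the untreated KO, 0.78 in the DSS WT and 0.67 in the untreated WT colon. These values were chosen after they were seen and have no replicate.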
